A study of Mus musculus with 6 samples.

Results

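Egr, Nr4a and Ier early genes are genes whose transcripts appear within minutes when a cell is stimulated and are then quickly degraded. The members and the related gene lists below were chosen by symbol, with earlier results of these data known. Their counts beside a share of all genes therefore describe them and are not support. All 10 members were found among the 18849 genes of the deposited expression table: the zinc finger transcription factors Egr1, Egr2 and Egr3, the nuclear receptors Nr4a1, Nr4a2 and Nr4a3, the immediate early response genes Ier2, Ier3 and Ier5, and the phosphatase gene Dusp1. Messenger RNA of whole kidney was sequenced in 6 libraries. The mice were C57BL/6 males aged 8 weeks, and the ureter of a kidney had been obstructed for 14 days (UUO, unilateral ureteral obstruction), which scars the tissue. The 3 control libraries came from c-Abl flox/flox mice, called floxed here, whose genotype label reads WT. The 3 knockout libraries came from c-Abl Epi-cKO mice, which carry the same floxed alleles and Ksp-Cre and whose genotype label reads c-Abl knockdown. The promoter of kidney-specific cadherin drives this Cre recombinase in tubule epithelium, so other kidney cells keep the kinase gene Abl1. Both groups were obstructed, and unobstructed kidneys were not analysed here. Nothing in the labels ties a library to its own mouse, and the p-values then measure only the spread between libraries, which may be technical.

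Early genes link signals at the cell surface to transcription. Growth factors, injury and stretch activate MAP kinases and raise cyclic AMP and calcium, and the factors SRF and CREB, already bound or waiting in the nucleus, then switch these genes on without new protein synthesis. Egr proteins bind GC-rich sites and induce growth factors and matrix genes, and they also induce Nab2, a corepressor that shuts them off. Nr4a receptors bind DNA with no known natural ligand, so that their activity follows their abundance. Dusp1 removes phosphate from MAP kinases in the nucleus and so closes the loop. In injured kidney tubules Egr1 is a classical early response gene.

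The sequences upstream of the start sites are shown first, as places where sites for such factors can lie. Windows of the 250 bases before a start site were available from RefSeq (build GRCm38.p6, whereas the expression values rest on mm9) for 7 of the 10 members. They were searched on both strands for the core of the cyclic AMP response element (TGACG), its full form (TGACGTCA), the CArG box to which SRF binds, the Egr site (GCGGGGGCG), the AP-1 site (TGANTCA), the Nr4a monomer site (AAAGGTCA) and the NF-kappaB site. A full cyclic AMP response element holds the core on both strands and was counted under both. Capitals mark every match, and each line gives the gene, its place and the bases from 5′ to 3′.
Egr2 (chr10:67537619-67537868, plus strand): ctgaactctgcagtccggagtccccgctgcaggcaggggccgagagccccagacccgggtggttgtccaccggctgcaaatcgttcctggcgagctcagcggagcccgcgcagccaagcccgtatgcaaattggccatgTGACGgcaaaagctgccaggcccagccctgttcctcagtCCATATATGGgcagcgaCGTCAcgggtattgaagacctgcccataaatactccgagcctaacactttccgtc
Nr4a1 (chr15:101266596-101266845, plus strand): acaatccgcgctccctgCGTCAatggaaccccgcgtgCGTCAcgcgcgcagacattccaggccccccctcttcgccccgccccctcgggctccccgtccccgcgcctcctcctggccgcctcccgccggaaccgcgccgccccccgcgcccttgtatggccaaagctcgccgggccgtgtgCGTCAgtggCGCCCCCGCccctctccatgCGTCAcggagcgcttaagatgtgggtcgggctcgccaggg
Nr4a2 (chr2:57124004-57124253, minus strand): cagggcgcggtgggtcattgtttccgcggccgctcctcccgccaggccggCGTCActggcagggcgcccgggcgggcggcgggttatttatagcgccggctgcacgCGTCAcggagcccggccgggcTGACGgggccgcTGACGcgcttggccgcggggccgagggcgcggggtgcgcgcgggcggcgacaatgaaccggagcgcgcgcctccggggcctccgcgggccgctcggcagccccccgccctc
Nr4a3 (chr4:48045055-48045304, plus strand): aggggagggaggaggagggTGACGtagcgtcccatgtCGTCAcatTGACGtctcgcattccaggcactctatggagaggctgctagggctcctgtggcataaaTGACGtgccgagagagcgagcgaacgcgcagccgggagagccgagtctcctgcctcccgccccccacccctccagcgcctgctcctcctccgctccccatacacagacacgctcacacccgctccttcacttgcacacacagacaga
Dusp1 (chr17:26508473-26508722, minus strand): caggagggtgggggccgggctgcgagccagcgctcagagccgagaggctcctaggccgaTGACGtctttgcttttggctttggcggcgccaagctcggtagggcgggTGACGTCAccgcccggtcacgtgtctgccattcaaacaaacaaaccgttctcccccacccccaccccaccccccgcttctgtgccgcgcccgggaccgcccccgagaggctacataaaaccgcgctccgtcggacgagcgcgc
Ier3 (chr17:35821463-35821712, plus strand): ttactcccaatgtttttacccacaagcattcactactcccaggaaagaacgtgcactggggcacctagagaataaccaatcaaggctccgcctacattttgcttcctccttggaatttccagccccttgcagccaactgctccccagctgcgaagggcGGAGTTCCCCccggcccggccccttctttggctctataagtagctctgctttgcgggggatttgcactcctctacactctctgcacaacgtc
Each of the 3 Nr4a windows held 4 cores of the cyclic AMP response element, a number reached by 0.137% of the 32851 windows of all genes, while 17.8% held at least 1. The Egr2 window held a CArG box with a core on either side of it, and 1.47% of all windows had a CArG box. Egr2 has 5 listed windows, and the first with both motifs is shown. The shares of all windows are per window, so a gene with 5 windows has more places for a match. A further Egr2 window, at chr10:67535249-67535498, held 2 overlapping NF-kappaB matches and none of the other motifs. The Dusp1 window held the full cyclic AMP response element, present in 1.55% of all windows, and a further core. Nr4a1 alone among the 7 had an Egr site (2.57% of all windows), which lay between 2 of its cores. The Ier3 window held an NF-kappaB site (7.25% of all windows) and none of the other motifs, and the Ier5 window had no match. No member window held an AP-1 site or an Nr4a monomer site, present in 6.75% and 1.34% of all windows. A match describes these letters only and shows neither binding nor use.

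**Figure D1:**
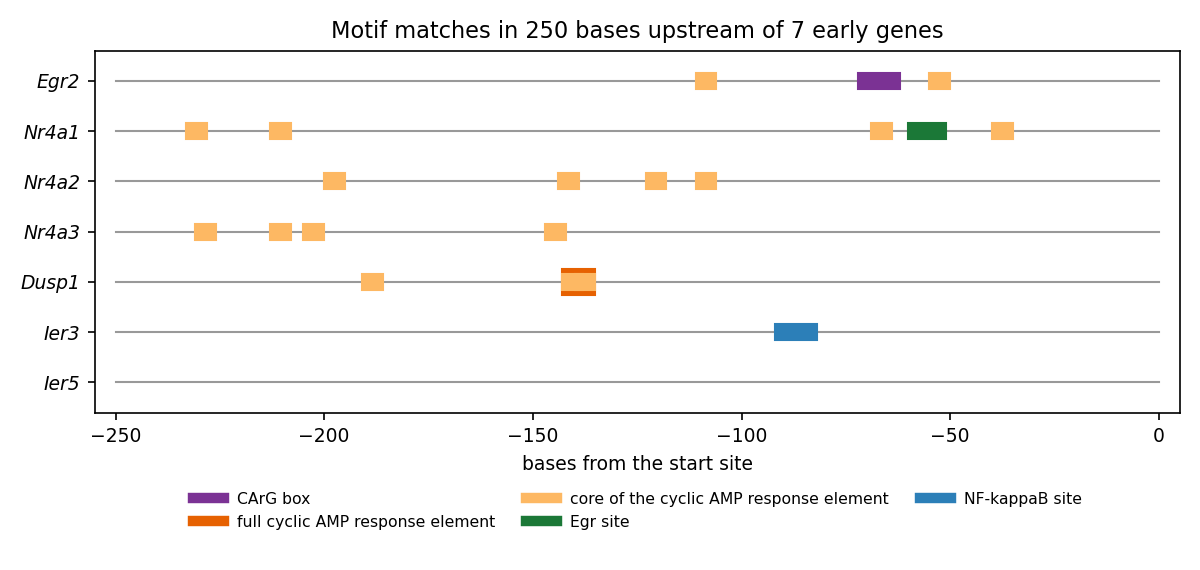
Motif matches along the 250 bases upstream of the start site (position 0) of 7 early genes, drawn to scale, with 1 line per gene and boxes for matches on either strand. The 3 Nr4a genes have 4 cores of the cyclic AMP response element each, the Egr2 window shown has a CArG box between 2 cores, and Ier5 has no match. Egr2 is drawn for 1 of its windows.

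Expression is given as FPKM, which corrects the fragments of a gene for its length and for the size of its library, so levels can be compared between genes. Sets of 3 values are in the order of replicates 1, 2 and 3. Steps between low values put the depth at about 16150000 to 18050000 fragments per library. Log2 fold changes are knockout minus floxed on the log2(FPKM + 1) scale, where low genes appear less changed than they are, and come from limma over 13390 genes with at least 1 FPKM in at least 3 libraries, with Benjamini-Hochberg adjustment. Abl1 read 18.16, 15.93 and 17.33 FPKM across the floxed and 10.46, 14.45 and 12.91 FPKM across the knockout libraries (limma adjusted p = 0.144). Over all genes 9 passed an adjusted p of 0.05. Knockout replicate 3 resembled the floxed libraries more than its own group did: its log2 values correlated with theirs at 0.968 to 0.969 across genes, against 0.913 to 0.921 for knockout replicate 1 and 0.931 to 0.935 for replicate 2. Counts of called genes are therefore also given without it. That choice rests on the values themselves, so such counts describe the fit and are not support. Floxed replicate 1 stood apart in B cell markers, with a summed level of 89.0 FPKM against 6.46 to 21.2 FPKM in the other libraries, and in T and NK cell markers, at 88.5 against 21.6 to 32.9 FPKM. Neutrophil markers summed to 443 FPKM in floxed replicate 2 against 70.4 and 73.7 FPKM in the other floxed and 14.3 to 274 FPKM in the knockout libraries. Proximal tubule and thick ascending limb markers, which define the labelled tissue, were present in every library.

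All 10 early genes had a lower mean in the knockout kidneys, from 14.4% lower for Ier3 to 78.9% lower for Egr2. The 9 tested members all had log2 fold changes below 0, against 65.4% of genes tested. For 7 of the 10, namely the 3 Egr genes, the 3 Nr4a genes and Ier5, every knockout library lay below every floxed library, against 18.9% of all genes with a value above 0. No member passed the limma threshold (0 of 9 tested), a background of 0.0373% of genes tested being called lower and 0.0299% higher. At an unadjusted limma p of 0.05, 7 of 9 members were lower and 0 higher, against 16.3% and 8.38% of genes tested. Egr3 and Nr4a2 reached the filter only through their floxed values and Nr4a3 did not reach it, so counts over the tested members describe them and are not support. The median log2 fold change was -0.91 over the 9 tested members and -0.87 over all 10, against -0.12 over all genes tested.

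**Figure D2:**
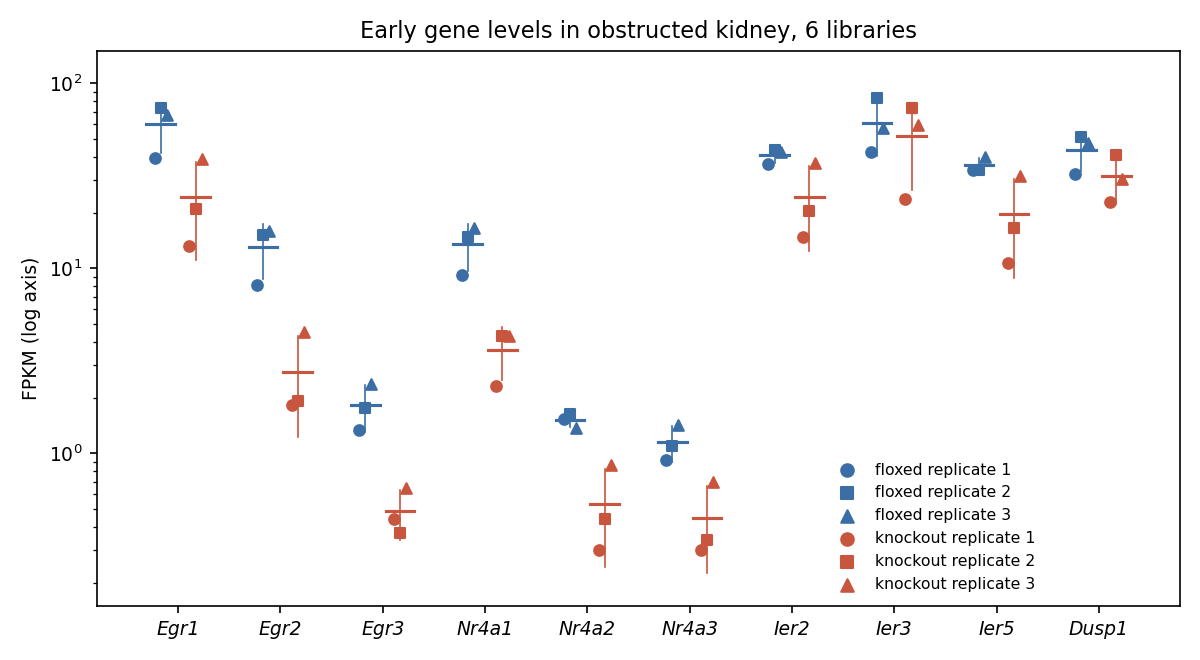
FPKM on a log axis for the 10 early genes in the 3 floxed (blue) and 3 knockout (red) libraries, with 1 symbol per replicate, horizontal bars at group means and vertical lines of 1 SD. The groups are apart for the Egr and Nr4a genes and Ier5, and overlap for Ier2, Ier3 and Dusp1.

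Among the Egr genes, Egr1 (Entrez 13653) read 39.5, 73.22 and 67.58 FPKM across the floxed and 13.15, 20.87 and 39.12 FPKM across the knockout libraries. The highest knockout value, in replicate 3, came to 99.0% of the lowest floxed value, in replicate 1, so the groups were barely apart. Its means were 60.1 ± 18.1 and 24.4 ± 13.3 FPKM (SD, n = 3), 2.47-fold higher in floxed kidneys, and the log2 fold change was -1.35 (SE 0.402, limma adjusted p = 0.117). Egr2 (Entrez 13654), which in nerve directs myelination and in immune cells restrains activation, had the largest difference of the 10. It read 8.09, 15.21 and 15.82 FPKM across the floxed and 1.83, 1.92 and 4.52 FPKM across the knockout libraries. Every knockout value was at most 55.9% of the lowest floxed value. The means of 13.0 ± 4.30 and 2.76 ± 1.53 FPKM (SD, n = 3) differed 4.73-fold, with a log2 fold change of -1.92 (SE 0.342, limma adjusted p = 0.0547), and 0.217% of genes tested had a change at or below this. Egr3 (Entrez 13655), a close relative that shares the zinc finger domain, was expressed at a far lower level, at 1.34, 1.75 and 2.37 FPKM across the floxed and 0.44, 0.37 and 0.65 FPKM across the knockout libraries. The groups were well apart, 3.74-fold in means (log2 fold change -0.91, SE 0.192, limma adjusted p = 0.0687). At the estimated depth its knockout values stand for about 24 to 41 fragments.

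Nr4a1 (Entrez 15370), also called Nur77, led the nuclear receptors. It read 9.24, 14.79 and 16.54 FPKM across the floxed and 2.3, 4.31 and 4.3 FPKM across the knockout libraries. All 3 knockout libraries were low, and the highest was 46.6% of the lowest floxed value, the widest gap of the 10 genes. The means of 13.5 ± 3.81 and 3.64 ± 1.16 FPKM (SD, n = 3) differed 3.72-fold, with a log2 fold change of -1.64 (SE 0.273, limma adjusted p = 0.0547). Nr4a2 (Entrez 18227), known from dopamine neurons, read 1.53, 1.63 and 1.37 FPKM across the floxed and 0.3, 0.44 and 0.86 FPKM across the knockout libraries, with no overlap and a 2.83-fold difference in means (log2 fold change -0.73, SE 0.187, limma adjusted p = 0.0948). The floxed libraries were nearly level for this gene. Nr4a3 (Entrez 18124) read 0.92, 1.1 and 1.42 FPKM across the floxed and 0.3, 0.34 and 0.7 FPKM across the knockout libraries, again with no overlap and 2.57-fold in means. In the limma fit with no filter its log2 fold change was -0.57 (SE 0.139, adjusted p = 0.120). The knockout values of Nr4a2 and Nr4a3 correspond to about 18 to 65 fragments, which limits their precision.

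Ier2 and Ier5 encode related nuclear proteins, and Ier5 is known for work with the heat shock factor. Ier2 (Entrez 15936) read 36.62, 43.76 and 42.41 FPKM across the floxed and 14.74, 20.44 and 37.3 FPKM across the knockout libraries. Only knockout replicate 3 reached the floxed range, just above floxed replicate 1 (means 1.69-fold apart, log2 fold change -0.83, SE 0.306, limma adjusted p = 0.164). Ier5 (Entrez 15939) read 34.11, 34.03 and 40.17 FPKM across the floxed and 10.71, 16.6 and 31.71 FPKM across the knockout libraries, so its groups stayed apart, with replicate 3 at 93.2% of the lowest floxed value. The means were 1.84-fold apart (log2 fold change -0.97, SE 0.345, limma adjusted p = 0.155). Ier3 (Entrez 15937), a stress-induced gene that affects cell survival and is a target of NF-kappaB, differed in pattern. It read 42.41, 82.89 and 57.31 FPKM across the floxed and 23.56, 73.58 and 59.26 FPKM across the knockout libraries. Only knockout replicate 1 was below the floxed range, and the log2 fold change of -0.31 (SE 0.437, limma adjusted p = 0.663) was smaller than its error and turned to 0.17 without that library.

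Dusp1 (Entrez 19252), the MAP kinase phosphatase, read 32.34, 51.24 and 47.46 FPKM across the floxed and 22.75, 41.11 and 30.31 FPKM across the knockout libraries. Knockout replicate 2 lay inside the floxed range and the other two below it. The means were 1.39-fold apart, with a log2 fold change of -0.48 (SE 0.255, limma adjusted p = 0.279).

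The order of levels was much alike in both groups. In floxed kidneys it ran from Ier3 at 60.9 FPKM through Egr1, Dusp1, Ier2 and Ier5 at 36.1 FPKM, then Nr4a1 and Egr2 at 13.5 and 13.0 FPKM, and last Egr3, Nr4a2 and Nr4a3 at 1.82 to 1.15 FPKM. Neighbours within each of these 3 tiers had overlapping library values, and the tiers themselves did not overlap. In knockout kidneys the same 3 tiers held the same genes, with Dusp1 above Egr1 and Nr4a2 above Egr3.

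Libraries differed in the same way for most members. Knockout replicate 1 was the lowest knockout library for 9 of the 10 genes and replicate 3 the highest for 7, and the same held for 52.4% and 52.9% of genes tested. Relative to the floxed mean, the median over the 10 members was -1.34, -0.99 and -0.46 in knockout replicates 1, 2 and 3 on the log2(FPKM + 1) scale, against -0.23, -0.12 and -0.03 over all genes tested. Floxed replicate 1 was the lowest floxed library for 8 of the 10, which held for 28.8% of genes tested. The summed level of the 10 genes was 206, 320 and 292 FPKM across the floxed and 90.1, 180 and 209 FPKM across the knockout libraries, so on this sum knockout replicate 3 and floxed replicate 1 met. Without knockout replicate 3, 7 of 9 members passed the limma threshold as lower (all but Ier3 and Dusp1), with adjusted p from 0.00591 for Egr2 to 0.0214 for Egr3, but 15.4% of all genes then passed as lower. This library was singled out for its likeness to the floxed libraries, and Egr3 and Nr4a2 reached the filter only through floxed values. The count is therefore not support. The same 7 members passed as lower with limma's array weights, which down-weight libraries that fit less well, against 6.48% of all genes. These weights were 3.93 and 2.70 for floxed replicates 2 and 3 and 0.364 to 0.665 for the other libraries. Without floxed replicate 1 none passed, and Egr2 and Nr4a1 stood at log2 fold changes of -2.21 and -1.88.

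**Figure D3:**
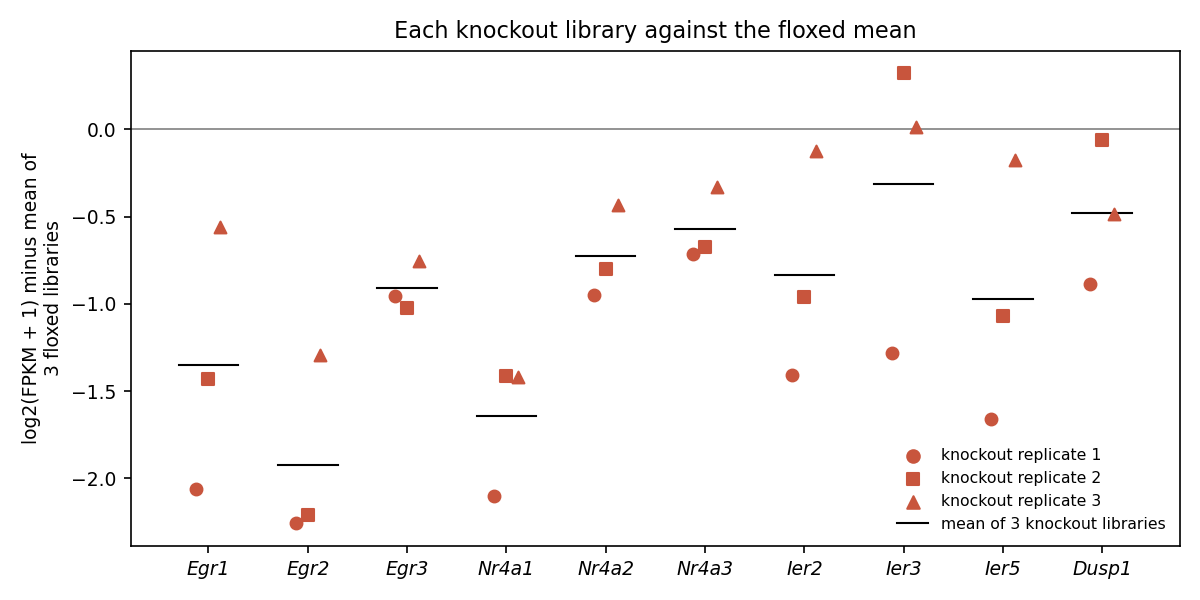
Difference of each knockout library from the mean of the 3 floxed libraries, on the log2(FPKM + 1) scale, for the 10 early genes, with black bars at the mean of 3. Replicate 3 lies nearest to 0 for most genes, whereas Nr4a1 has replicates 2 and 3 at -1.41 and -1.42, and Ier3 has replicate 2 at 0.32.

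Ratios between members do not change when a library is multiplied by a single factor, as in median-ratio or TPM scaling. Each member was therefore also set against Egr1 in the same library. Quantile scaling can change such ratios. Egr2 stood at 20.5, 20.8 and 23.4% of Egr1 in floxed replicates 1, 2 and 3 and at 13.9, 9.20 and 11.6% in knockout replicates 1, 2 and 3. The floxed values lay close together and no knockout value reached them (21.6% ± 1.61 and 11.6% ± 2.36, SD, n = 3, exact two-sided permutation p = 0.1, the smallest that 3 against 3 allow). Ier3 went the other way, at 107, 113 and 84.8% of Egr1 in floxed and 179, 353 and 151% in knockout replicates 1, 2 and 3 (exact permutation p = 0.1). Ier2 stood at 59.8 to 92.7% of Egr1 in floxed and 95.3 to 112% in knockout libraries, also with no overlap. Ier3 and Ier2 were themselves lower in mean in knockout kidneys (log2 fold changes -0.31 and -0.83), but less so than Egr1 (-1.35). The ratios of Egr3, the 3 Nr4a genes, Ier5 and Dusp1 to Egr1 overlapped between the groups. Of the 9 ratios none passed after adjustment (exact permutation test, lowest adjusted p = 0.3), which this number of libraries could not have allowed.

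**Figure D4:**
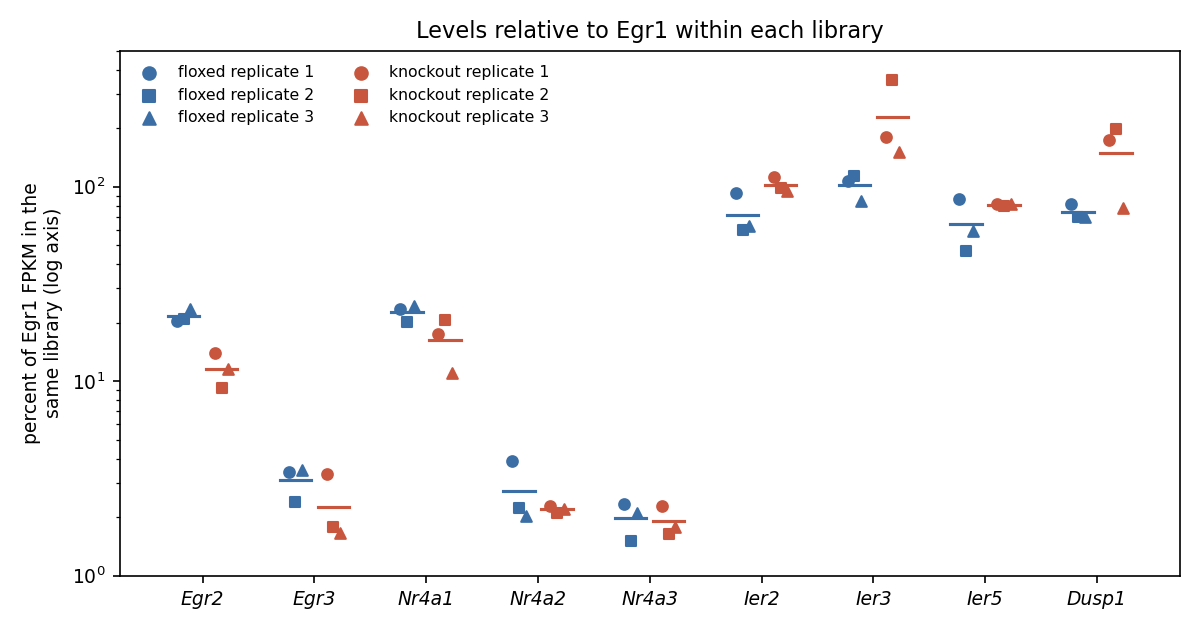
FPKM of 9 early genes as a percentage of Egr1 in the same library, on a log axis, with 1 symbol per replicate and bars at group means. As a share of Egr1, Egr2 is lower in all 3 knockout libraries, Ier2 and Ier3 are higher in all 3, and the other 6 genes overlap.

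Of 38 other immediate-early genes listed 35 were tested, of which 33 were below 0 and 2 above, against 65.4% of all genes tested below 0. Their median log2 fold change was -0.63. None passed the limma threshold, 8 were lower at an unadjusted p of 0.05 and 0 higher, against 16.3% and 8.38% of genes tested. The groups did not overlap for 6, all lower (17.1% of the 35), against 21.7% of genes tested. Ccn1, a secreted matrix protein induced by stretch, read 100.48, 239.26 and 296.07 FPKM across the floxed and 34.33, 64.72 and 61.34 FPKM across the knockout libraries (limma adjusted p = 0.0797). The polo-like kinase gene Plk2 read 12.61, 16.09 and 19.65 against 4.12, 5.88 and 9.71 FPKM (limma adjusted p = 0.0839). Fos, a subunit of the AP-1 factor, read 11.34, 16.36 and 14.78 against 3.5, 4.86 and 9.14 FPKM (limma adjusted p = 0.0907). For these 3 genes too the groups did not overlap and floxed replicate 1 was the lowest of its group.

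Among the regulators of the Egr proteins, the corepressor Nab2 read 20.28, 19.02 and 21.69 FPKM across the floxed and 10.83, 12.73 and 13.67 FPKM across the knockout libraries. Its libraries varied little within a group (log2 fold change -0.67, limma adjusted p = 0.0633). Of the 5 genes listed as relatives or corepressors, Nab2 included, 4 were tested, 3 below 0 and 1 above, against 65.4% of genes tested below 0. At an unadjusted limma p of 0.05, 2 were lower and 1 higher, against 16.3% and 8.38% of genes tested. Wt1, a zinc finger relative expressed in podocytes, read 7.46 ± 1.13 and 4.53 ± 1.28 FPKM (SD, n = 3, limma adjusted p = 0.131). The gene above 0 was Ndrg1, a stress gene that is neither a relative nor a corepressor, at 480 ± 90.5 and 739 ± 42.4 FPKM (SD, n = 3, limma adjusted p = 0.109).

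The feedback inhibitors of MAP kinase signalling, which are Dusp and Sprouty family genes, had 12 of 15 members below 0, against 65.4% of genes tested, a median of -0.52 and none past the limma threshold. At an unadjusted limma p of 0.05, 8 were lower and 1 higher, against 16.3% and 8.38% of genes tested. Dusp5, which acts on ERK in the nucleus, read 4.58, 5.53 and 7.18 FPKM across the floxed and 1.85, 1.85 and 3.75 FPKM across the knockout libraries (limma adjusted p = 0.0947). Dusp10, which acts on p38 and JNK, read 3.34, 3.27 and 4.63 against 1.17, 1.85 and 2.27 FPKM (limma adjusted p = 0.0975). Dusp9 stood on the other side, at 0.48, 0.51 and 0.69 against 1.81, 1.99 and 1.12 FPKM (limma adjusted p = 0.0929). This gene was the 1 counted as higher. It reached the filter only through its knockout values, so that count describes it and is not support.

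The kinases and transcription factors upstream were closer to the background. Of 32 genes 27 were below 0, against 65.4% of genes tested, with a median of -0.19 and none past the limma threshold. At an unadjusted limma p of 0.05, 5 were lower and 0 higher, a share of lower genes near the 16.3% of all genes tested. SRF, the factor that binds the CArG box, is encoded by Srf, which read 12.56, 15.62 and 17.81 FPKM across the floxed and 7.48, 9.54 and 9.77 FPKM across the knockout libraries (limma adjusted p = 0.0839). Its partner Elk3 read 16.57, 15.48 and 15.44 against 6.02, 7.36 and 12.01 FPKM (limma adjusted p = 0.0952), and the kinase Mapk7 13.52, 12.07 and 12.64 against 6.59, 8.93 and 10.22 FPKM (limma adjusted p = 0.125). None of these 3 genes overlapped between the groups. That held, as lower, for 8 of the 32 (25.0%), near the 21.7% of genes tested.

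Genes reported elsewhere as Egr targets were all below 0, 14 of 14, against 65.4% of genes tested, with a median of -0.73 and none past the limma threshold. At an unadjusted limma p of 0.05, 8 were lower and 0 higher, against 16.3% and 8.38% of genes tested. The collagen gene Col1a2 read 183 ± 26.3 and 52.6 ± 35.3 FPKM and thrombospondin 1 (Thbs1) 67.3 ± 26.1 and 23.6 ± 2.44 FPKM (SD, n = 3, limma adjusted p = 0.0687 and 0.0740). Col1a2 also stands on the list of fibroblast markers. Genes reported as Nr4a targets, which are mostly enzymes of glucose synthesis that proximal tubules also express, lay on the other side from the Nr4a genes, with 4 of 5 tested above 0, a median of 0.68 and none past the limma threshold. At an unadjusted limma p of 0.05, 3 were higher and 0 lower, with the same background. Fbp2 read 15.9 ± 1.06 and 26.2 ± 3.24 FPKM, Fbp1 94.8 ± 18.8 and 327 ± 175 FPKM, and G6pc 9.80 ± 2.82 and 79.7 ± 47.0 FPKM (SD, n = 3, limma adjusted p = 0.0633, 0.107 and 0.0651). Without knockout replicate 3, the limma threshold was passed by 18 other immediate-early genes, all lower, by 6 feedback inhibitors as lower and 1 as higher, by 7 upstream genes as lower and 1 as higher, by 12 reported Egr targets, all lower, and by 4 reported Nr4a targets, all higher, against 15.4% of all genes lower in that fit and 9.02% higher.

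**Figure D5:**
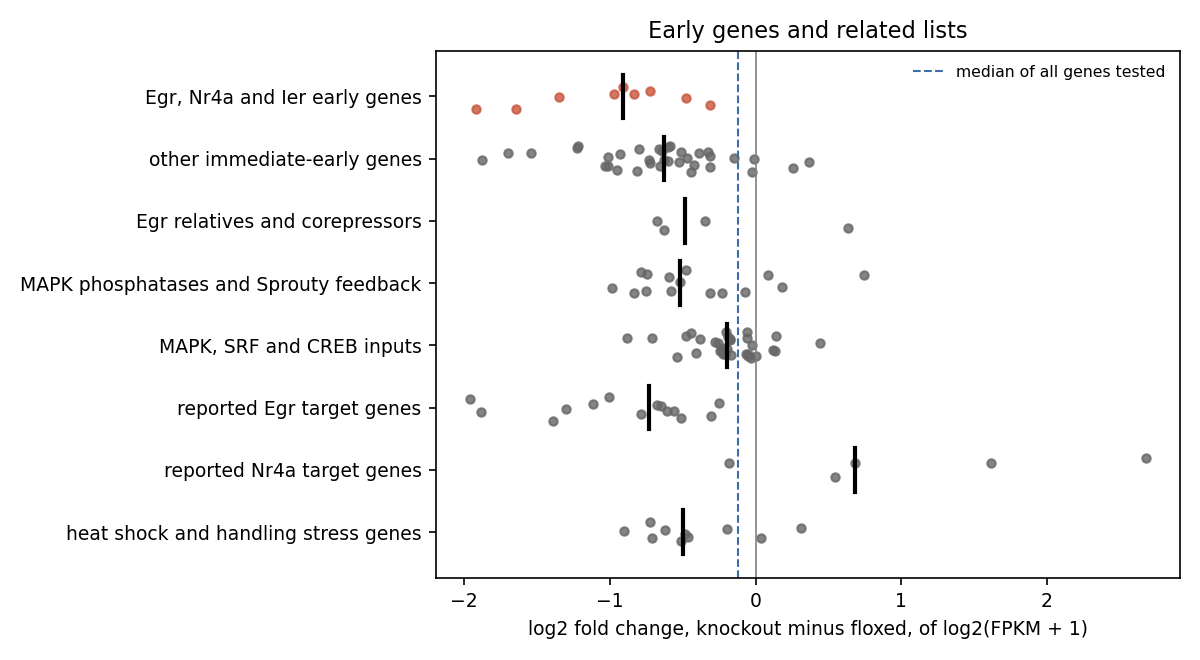
Log2 fold changes (knockout minus floxed, log2(FPKM + 1) scale) of tested genes in the early gene set (red) and 7 related lists (grey), with 1 point per gene, black bars at list medians and a dashed line at the median of all genes tested, -0.12. The early genes have the lowest median, -0.91, and the reported Nr4a targets the highest, 0.68.

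By the rule for likeness of pattern, the 5 genes nearest to the mean standardised profile of the tested members over the 6 libraries were Btg2, Ifi207, Kbtbd2, Aebp1 and Stau1, with Pearson r of 0.995 or above. As a description, 939 of the 10267 genes compared had an r above 0.9 with this profile, and all points share the group difference. Btg2, an antiproliferative gene that is itself rapidly induced, read 37.94, 53.79 and 51.32 FPKM across the floxed and 15.37, 24.57 and 31.56 FPKM across the knockout libraries (limma adjusted p = 0.0979).

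Of 12 lists of cell type markers, 5 had summed levels that did not overlap between the groups, those of fibroblasts, macrophages, smooth muscle, podocytes and thick ascending limb, and 7 overlapped. Over all genes tested 65.4% were below 0, which is the background for the counts of markers that follow. All 10 fibroblast markers were below 0, with a summed level of 655 to 875 FPKM in floxed and 137 to 413 FPKM in knockout libraries, and 9 of 10 macrophage markers were, at 1886 to 2686 against 767 to 1551 FPKM. Of these markers the macrophage gene Ms4a7 passed the limma threshold (adjusted p = 0.0446). All 7 smooth muscle and pericyte markers were below 0, at 143 to 202 against 54.15 to 129 FPKM, and all 6 podocyte markers were, at 98.7 to 148 against 70.6 to 93.6 FPKM. All 8 endothelial markers were below 0 as well, but their sums overlapped, at 122 to 223 against 100 to 127 FPKM. All 6 thick ascending limb markers were above 0, at 529 to 730 against 782 to 1298 FPKM. All 10 proximal tubule markers were above 0, with sums of 883, 1251 and 1420 FPKM across the floxed and 5015, 3714 and 1211 FPKM across the knockout libraries, so that knockout replicate 3 lay inside the floxed range. No fibroblast, macrophage or proximal tubule marker was listed at 0 in every library. Heat shock genes, which respond to tissue handling, had 8 of 10 below 0, against 65.4% of genes tested. None reached an unadjusted limma p of 0.05. The median log2 fold change of this list was -0.50, against -0.12 over all genes tested. Their summed level was 1411, 2499 and 3010 FPKM across the floxed and 1941, 1813 and 1823 FPKM across the knockout libraries. Hspb1, Dnajb1 and Hsp90aa1, which had the smallest p of that list, each overlapped between the groups (limma adjusted p = 0.297, 0.298 and 0.337). In whole tissue, fewer cells of a type and less RNA per cell cannot be told apart, and the part of cell mixture or handling in the early gene values was not tested.

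The balance of higher and lower genes depended on scaling. With median-ratio scaling the median over all genes went from -0.12 to 0.0012, and the share of higher genes among those at an unadjusted limma p of 0.05 from 34.0% to 51.4%, with 50.1% under quantile scaling and 31.0% under TPM scaling. The 9 tested members stayed below 0 under all 3 scalings. With the values as deposited 65.4% of genes tested were below 0, and this share is not given here for the scalings. The median of the members was -0.84, -0.79 and -1.05 with median-ratio, quantile and TPM scaling, against 0.0012, -0.0085 and -0.18 over all genes. Members whose knockout libraries all lay below the floxed ones numbered 6 of 9 with the values as deposited, against 21.7% of genes tested. They numbered 4 with median-ratio scaling (15.1% of genes tested), 6 with quantile scaling (15.9%) and 5 with TPM scaling (21.7%).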

How the data were processed

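Total RNA of whole kidney was extracted with TRIzol and libraries followed an Illumina protocol, per the labels' protocols. The authors deposited FPKM per gene and library, per the file headers, with 2 decimals. They used build mm9, per the submitters' processing notes. How reads were aligned and counted, with which annotation and strand setting, is not given in the sources used here, so reads of overlapping or antisense genes may be mixed.

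Groups and replicate numbers came from the sample titles. Of 18849 genes, the 13390 that reached an FPKM of 1 in 3 or more libraries were kept, and log2(FPKM + 1) values were compared with limma 3.58.1 in R 4.3.3 (group as the only term, mean-variance trend, two-sided, Benjamini-Hochberg adjustment over all genes tested, threshold 0.05). The script was tested on simulated data. Ratios to Egr1, added after the values were seen, used an exact permutation test. Depth was estimated from low values of genes with 1 annotated transcript. The depth taken was the one at which most stood for a whole number of fragments within 0.2, 64.6% to 69.5% of them. The next best depth further off gave 45.3% to 50.4%. Fragments of a member were estimated with its longest annotated transcript, which may differ from the annotation behind the FPKM values. Python 3.11.15, pandas 2.3.3 and matplotlib 3.10.9 made the tables and plots.

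The members and gene lists were chosen with earlier results of these data known. The text names all members, per list the genes past the threshold and up to 3 with the smallest p, the 5 genes most alike in pattern with mean FPKM of at least 5, and Abl1. Older symbols of 4 list genes were matched through RefSeq synonyms. The alternatives were other pseudocounts, filters, scalings and limma settings, a replicate block, and leaving out each library.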

Additional observations from a re-analysis of the deposited data

How the results depend on the processing

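The fit as reported had 9 genes past the limma threshold. TPM scaling gave 10, and each of 7 other alternatives gave 1. These 7 were pseudocounts of 0.1 and 0.01, quantile scaling, median-ratio scaling, no filter, a mean FPKM filter of 5 and no limma trend. The count was 2 with the replicate block and 1456 with array weights. With a library left out it was 0 to 3271, the highest without knockout replicate 3 and 0 without floxed replicate 2 or 3. Members past the threshold numbered 0 in the fit as reported, 7 with array weights and 0 to 7 with a library left out (7 without knockout replicate 3, 0 without any other). Array weights gave knockout replicate 3 the lowest weight, 0.364, and floxed replicate 2 the highest, 3.93. Floxed replicate 3 followed at 2.70, and floxed replicate 1 and knockout replicates 1 and 2 stood at 0.613 to 0.665. In the related lists, where none passed, array weights gave 8 of 35 other immediate-early genes, 1 of 4 Egr relatives or corepressors and 3 of 15 MAP kinase feedback genes. They also gave 2 of 32 upstream kinases and factors, 7 of 14 reported Egr targets and 3 of 5 reported Nr4a targets. These counts take both directions together, and 1456 of all 13390 genes tested passed in that fit. With a library left out the ranges were 0 to 18, 0 to 2, 0 to 7, 0 to 8, 0 to 12 and 0 to 4 in that order, and 0 to 1 for heat shock genes. The upper ends all came without knockout replicate 3, where 3271 of all 13390 genes tested passed. Without floxed replicate 1, 1 reported Egr target passed. The cause was not tested. With a library left out Ier3 ranged from -0.63 to 0.17, above 0 only without knockout replicate 1. The other members kept their direction in every alternative that tested them. Same-numbered libraries did not deviate together (correlations of -0.13, -0.07 and 0.03 for numbers 1, 2 and 3), so the numbers were not taken as pairs, and with the replicate block no member passed (lowest adjusted p = 0.0784). Depth limits Egr3, Nr4a2 and Nr4a3, whose knockout values rest on about 18 to 65 fragments per library.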
